A study of Mus musculus with 6 samples.

Results

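The phosphocreatine, adenylate and myoglobin genes, which buffer ATP or store oxygen in muscle, were followed in skeletal muscle of PRR14-knockout mice: the creatine kinases Ckm, Ckmt2 and Ckb, the creatine transporter Slc6a8, adenylate kinase Ak1, AMP deaminase Ampd1 and myoglobin, Mb. They were taken by symbol from the count table, where each of the 7 had 1 row among 22036 gene rows. The muscle had been injected with an adeno-associated virus, a gene-delivery vector, that carried either MEF2C-GFP (the MEF2C libraries) or GFP alone (the GFP libraries), and was collected 1 month later. MEF2C is a transcription factor that binds the control regions of many muscle genes, PRR14 is a nuclear protein, and the question was what supplying MEF2C does to knockout muscle. Both groups, the GFP controls included, carry the knockout, and each has 3 libraries. The muscle, the age and sex of the mice, the virus dose and promoter, and whether a library is 1 animal are not stated in the labels, so the p-values measure the spread between these libraries only.

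Phosphocreatine is a rapid store of high-energy phosphate. Cytosolic creatine kinase returns that phosphate to ADP at the contractile filaments, mitochondrial creatine kinase recharges creatine where ATP is made, and the creatine transporter brings creatine in from the blood. Adenylate kinase and AMP deaminase act when ATP use outruns supply: the first joins a pair of ADP molecules into ATP and AMP, and the other removes that AMP as IMP. Fast, glycolytic fibres are known for much cytosolic creatine kinase and AMP deaminase, and oxidative fibres for myoglobin and mitochondrial creatine kinase.

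Each library held between 3370833 and 3900617 counts on listed genes, and the 7 genes together took between 4.52% and 5.24% of them. Values below are CPM, counts scaled to library size, after TMM normalisation (normalised CPM), and where 3 values are given for a group they stand in the order of replicates 1, 2 and 3. For any gene, a count of 0 would allow up to 3 counts, between 0.769 and 0.890 CPM. Mef2c stood at 234, 196 and 371 normalised CPM in the MEF2C libraries and at 223, 261 and 236 in the GFP libraries. Of the MEF2C libraries, replicate 3 alone lay above the GFP libraries, and the groups are therefore called by their labels. Whether reads from the viral Mef2c were counted under this gene is not given in the sources used here, so these values may not show the delivered gene. Prr14 had between 20 and 30 counts in the MEF2C libraries and between 11 and 15 in the GFP libraries, and with no wild-type library here this does not check the knockout. The skeletal muscle markers were all detected, with a summed level of 69700 to 79753 normalised CPM in the MEF2C libraries and 85704 to 99012 in the GFP libraries, while the heart markers Nppa and Myl7 had 0 counts in all 6. In bulk tissue, fewer fibres of a type and less RNA per fibre cannot be told apart.

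Promoter windows were looked up because MEF2C was the factor supplied. RefSeq windows (GRCm38.p6) were found for 5 of the 7 genes, and the 250 bases before each start site were searched on both strands for the MEF2 consensus, for the E-box CANNTG, which is bound by myogenic factors, and for TATAAA. Of 32841 windows over all genes, 2.9% held a MEF2 match, 66.2% an E-box and 12.4% TATAAA. Ckb had the only MEF2 match among the windows of these 5 genes, CTATAAATAG, which begins 29 bases before the start site and overlaps a TATAAA, so that these letters are a match to both. The windows of Ckm, Ckmt2, Ak1 and Mb held no MEF2 match, which says only that the letters are not in these 250 bases. The windows of 4 genes are shown, in capitals where they match the MEF2 consensus or the E-box: Ckb for its MEF2 match, Ckmt2 and Mb because their levels moved together across the libraries, and the outermost Ak1 window because Ak1 had the smallest p of the 7 genes. They lie at chr12:111672339-111672588 (minus strand, Ckb), chr13:91876886-91877135 (minus, Ckmt2), chr15:77022788-77023037 (minus, Mb) and chr2:32621508-32621757 (plus, Ak1).
Ckb: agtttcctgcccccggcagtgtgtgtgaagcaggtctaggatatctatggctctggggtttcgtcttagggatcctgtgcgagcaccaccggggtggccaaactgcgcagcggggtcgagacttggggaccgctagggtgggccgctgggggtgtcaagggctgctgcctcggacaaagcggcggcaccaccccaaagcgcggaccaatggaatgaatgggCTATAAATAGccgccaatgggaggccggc
Ckmt2: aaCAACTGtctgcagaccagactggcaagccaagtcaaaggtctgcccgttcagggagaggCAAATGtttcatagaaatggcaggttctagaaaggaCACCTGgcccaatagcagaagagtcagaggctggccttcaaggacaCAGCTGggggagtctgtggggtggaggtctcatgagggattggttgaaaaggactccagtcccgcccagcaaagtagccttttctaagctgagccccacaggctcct
Mb: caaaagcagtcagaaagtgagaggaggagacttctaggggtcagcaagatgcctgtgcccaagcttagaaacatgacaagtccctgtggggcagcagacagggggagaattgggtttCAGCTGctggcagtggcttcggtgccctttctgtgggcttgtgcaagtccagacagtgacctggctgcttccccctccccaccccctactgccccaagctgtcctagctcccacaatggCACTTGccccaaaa
Ak1: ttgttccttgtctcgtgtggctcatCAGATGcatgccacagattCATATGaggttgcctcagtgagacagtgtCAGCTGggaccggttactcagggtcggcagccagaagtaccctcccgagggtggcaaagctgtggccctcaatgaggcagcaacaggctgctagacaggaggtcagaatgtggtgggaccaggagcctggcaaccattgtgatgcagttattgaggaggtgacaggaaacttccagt
The Ckmt2 window holds 4 E-boxes, the Ak1 window 3 and this Mb window 2, while the Ckb window holds 0.

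None of the 7 genes passed the test between the MEF2C and the GFP libraries. By edgeR, 0 of 7 had an adjusted p under 0.05, where 7 of 9229 genes tested (0.0758%) did. At an unadjusted p under 0.05 there was 1 of the 7, Ak1, against 5.71% of all genes, and DESeq2 and limma-voom called 0 of the 7 as well. The groups did not overlap for 2 of the 7, Ak1 and Ckm, against 11.1% of all genes tested. The summed levels of blood genes (haemoglobins and Alas2, all 5 detected) did not overlap between the groups either, at 4393 to 8631 normalised CPM in the MEF2C libraries and 3080 to 4166 in the GFP libraries. All 5 blood genes had a higher estimate, 0 were called by edgeR, and Hba-a1 taken alone overlapped. The sums of skeletal muscle, smooth muscle and brown fat markers did not overlap between the groups either, while those of the other cell type markers did. The skeletal muscle sum was lower in the MEF2C libraries, though 2 of its 7 genes had a higher estimate. The smooth muscle sum was higher, with 4 of 5 genes estimated higher. The brown fat sum was higher by a narrow gap, between 2.12 and 3.11 CPM, and 1 of its 2 genes was tested. In these 3 lists edgeR called 0 genes. The part of blood or of these cells in the levels of the 7 genes was not tested. The estimates pointed lower for Ckm, Ak1 and Ampd1 and higher for Ckb, Slc6a8, Ckmt2 and Mb. Their median log2 fold change was 0.04, against 0.01 over all genes tested. All 7 passed the filter on low counts, and the SE of their fold changes had a median of 0.16, against 0.25 over all genes.

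**Figure D1:**
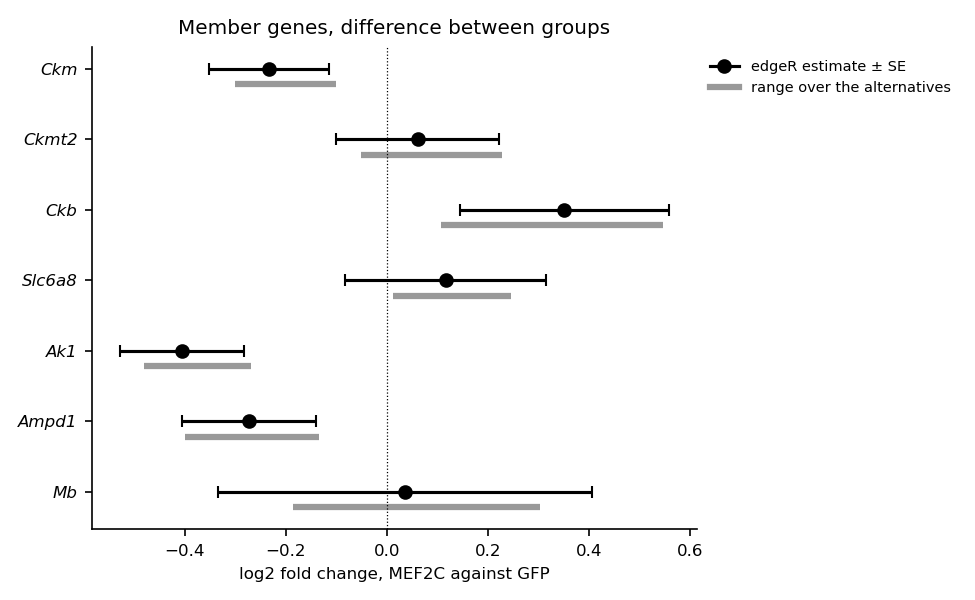
Log2 fold change of each gene, MEF2C against GFP libraries (x axis), with the edgeR estimate and its SE (point and bar) above the range over 16 alternative analyses (grey bar). Ak1, Ampd1 and Ckm lie below 0 and Ckb and Slc6a8 above 0 over the whole grey range, Ckmt2 and Mb lie on both sides of 0, and none of the 7 passed the test.

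The order of the levels was the same in all 6 libraries when counts were divided by the length of the longest annotated transcript (normalised CPM per kb). Ckm came first, between 13076 and 18385 CPM per kb, then Mb, between 1628 and 3499, and Ckmt2, between 936 and 1424. Ak1 followed at 558 to 930, Ampd1 at 164 to 247, Ckb at 12.5 to 24.7 and Slc6a8 at 3.28 to 4.33. No neighbours in this order overlapped across the 6 libraries, but Ckmt2 and Ak1 were close, and with the shortest principal transcript of each gene Ak1 reached 940 CPM per kb and the ranges of the 2 genes met. On that scale Mb stood higher, between 3267 and 7024 CPM per kb, since its shortest principal transcript has 550 bases against 1104 in the longest. In full-length cDNA sequencing a read stands for a transcript rather than a stretch of it. Without division by length the order of the means was the same, but the ranges of Mb, Ckmt2 and Ak1 all overlapped one another. The order within a library then varied. Ak1 stood above Ckmt2 in MEF2C replicate 3 (1416 against 1391 normalised CPM), GFP replicate 1 (1585 against 1563) and GFP replicate 2 (1940 against 1717).

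**Figure D2:**
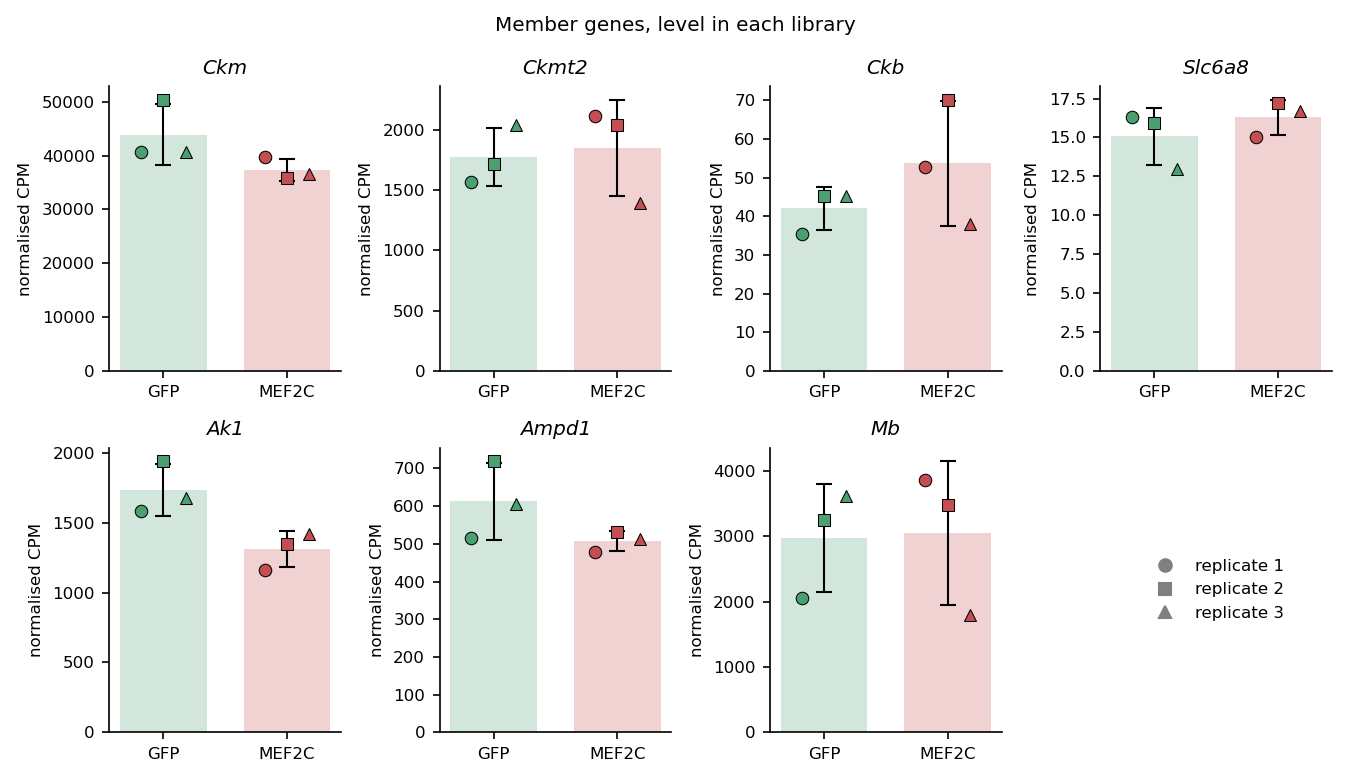
Normalised CPM (y axis, from 0) of each of the 7 genes in the 3 GFP and 3 MEF2C libraries, with symbols for the replicates, bars for the group means and error bars for the SD. The groups are apart for Ak1, and for Ckm by the narrow gap between 39687 and 40645 CPM, and overlap for the other genes, where Mb is spread between 1797 and 3863 CPM.

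Ckm, the muscle isoform of creatine kinase (ENSMUSG00000030399, GRCm38 chromosome 7, 19404776 to 19422841, plus strand, protein-coding), was among the 3 most abundant transcripts of every library. It stood at 39687, 35854 and 36577 normalised CPM in the MEF2C libraries and at 40645, 50412 and 40693 in the GFP libraries. GFP replicate 2 stood well above the other 5 libraries, which lay close together. The group means were 37373 ± 2036 against 43917 ± 5625 CPM (SD, n = 3 per group). The edgeR log2 fold change was -0.23 ± 0.12 (SE; adjusted p = 0.927). Without GFP replicate 2 the fold change was -0.12, and on library totals without TMM it was -0.10 and the groups overlapped. Library totals also shifted the median over all genes, from 0.01 to 0.14, so that Ckm was lower relative to that median by either scaling.

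Ckmt2, the sarcomeric mitochondrial creatine kinase (ENSMUSG00000021622, chromosome 13, 91853387 to 91876885, minus strand, protein-coding), varied within both groups. It stood at 2117, 2043 and 1391 normalised CPM in the MEF2C libraries and at 1563, 1717 and 2040 in the GFP libraries. MEF2C replicate 3 was the lowest of all 6 libraries, and GFP replicate 3 stood level with MEF2C replicate 2. The log2 fold change was 0.06 ± 0.16 (SE; edgeR adjusted p = 0.993). It turned negative without MEF2C replicate 1 (-0.05), MEF2C replicate 2 (-0.02) or GFP replicate 1 (-0.04), and was 0.23 without MEF2C replicate 3, 0.17 without GFP replicate 3 and 0.18 on library totals.

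Ckb, the brain-type creatine kinase found in many non-muscle cells (ENSMUSG00000001270, chromosome 12, 111669361 to 111672338, minus strand, protein-coding), was scarce beside the other creatine kinases. Its counts were 204, 282 and 157 in the MEF2C libraries and 120, 142 and 171 in the GFP libraries, or 52.9, 70.2 and 38.0 normalised CPM against 35.6, 45.3 and 45.3. MEF2C replicates 1 and 2 stood above every GFP library, while MEF2C replicate 3 lay below GFP replicates 2 and 3. The log2 fold change of 0.35 ± 0.21 (SE; edgeR adjusted p = 0.928) fell to 0.11 when MEF2C replicate 2 was left out and to 0.23 when GFP replicate 1 was, and reached 0.55 when MEF2C replicate 3 was. Its processed pseudogenes Ckb-ps1 and Ckb-ps2, annotated in GENCODE M21, could share reads with it, and the split was not tested.

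Markers of other cell types that hold Ckb differed between the libraries beside it. The brown fat markers Ucp1, the uncoupling protein of heat production, and Cidea, a lipid droplet protein, were both detected and summed to 44.1 normalised CPM in MEF2C replicate 2, the library with the most Ckb, and to between 1.28 and 3.63 in the other 5. Ucp1 had 74 counts there, 4 in MEF2C replicate 3, 1 in GFP replicate 2 and 0 in the other 3 libraries. Adipocyte markers (all 7 detected, 6 of 6 tested with a higher estimate) were also highest in MEF2C replicate 2, at a sum of 1910 CPM, against 910 and 1268 in MEF2C replicates 1 and 3 and 810 to 1092 in the GFP libraries. Smooth muscle markers (all 5 detected, 4 of 5 with a higher estimate) summed to 511, 628 and 516 CPM in the MEF2C libraries and to between 393 and 503 in the GFP libraries. Bone and osteoclast markers (6 of 7 detected, Sp7 at 0) summed to 455, 134 and 34.8 CPM in the MEF2C libraries and to between 33.8 and 57.0 in the GFP libraries. Schwann cell markers (all 7 detected) summed to between 219 and 331 CPM in the MEF2C libraries and between 293 and 340 in the GFP libraries. The part of these cells in the Ckb values was not tested.

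Within the creatine kinases, the division between isoforms differed between libraries by more than counting error when each read is taken as a separate molecule. The difference between groups in these shares was not tested. Ckmt2 made up 5.06%, 5.38% and 3.66% of the summed counts of Ckm, Ckmt2 and Ckb in the MEF2C libraries, and 3.70%, 3.29% and 4.77% in the GFP libraries. The 95% Wilson interval of MEF2C replicate 3, 3.57% to 3.75%, overlapped that of GFP replicate 1, 3.60% to 3.80%, and both lay below the interval of GFP replicate 3, 4.67% to 4.87%. Ckb made up 0.185% in MEF2C replicate 2 (interval 0.165% to 0.208%), against 0.126% in MEF2C replicate 1 and between 0.0842% and 0.106% in the other 4. These intervals cover counting error only and take each read as a separate molecule. Since PCR copies cannot be told from separate molecules, they may be too narrow even for that. Ckm held between 94.4% and 96.6% of the creatine kinase counts in every library.

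**Figure D3:**
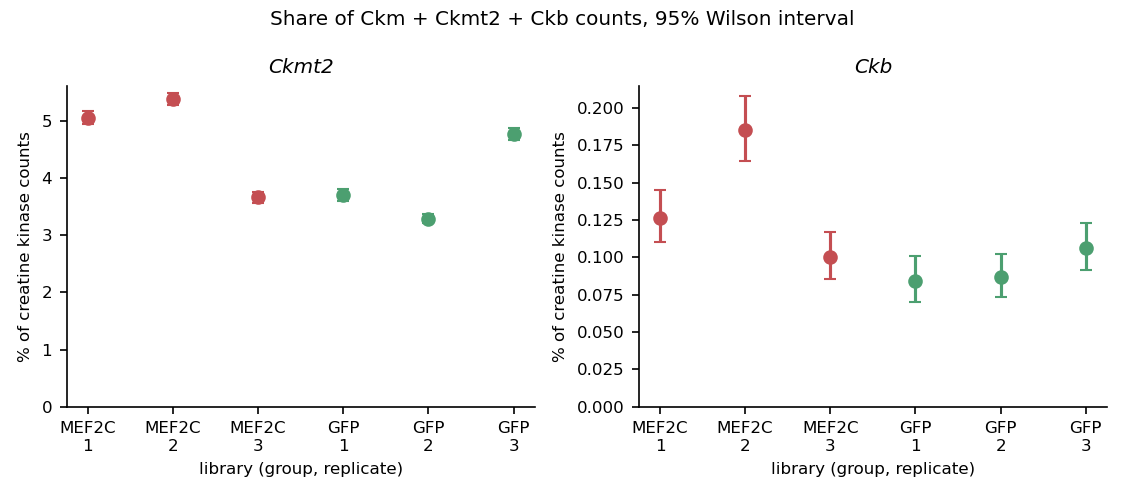
Share of the summed Ckm, Ckmt2 and Ckb counts (y axis, percent, from 0) taken by Ckmt2 (left) and Ckb (right) in each library, with 95% Wilson intervals that cover counting error only and take each read as a separate molecule. For Ckmt2, MEF2C replicates 1 and 2 and GFP replicate 3 are high, from 4.77% to 5.38%, and for Ckb, MEF2C replicate 2 stands highest at 0.185%.

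Slc6a8, the creatine transporter of the plasma membrane (ENSMUSG00000019558, chromosome X, 73673150 to 73682502, plus strand, protein-coding), was the least abundant of the 7 and had the smallest span over the 6 libraries, 1.32-fold. Its counts were 58, 69 and 69 in the MEF2C libraries and 55, 50 and 49 in the GFP libraries. After scaling these were 15.0, 17.2 and 16.7 normalised CPM against 16.3, 16.0 and 13.0, and the groups overlapped, with GFP replicate 3 the lowest. The log2 fold change was 0.12 ± 0.20 (SE; edgeR adjusted p = 0.993), 0.01 without GFP replicate 3, 0.07 without MEF2C replicate 2 and 0.25 on library totals. The estimate was smaller than its SE.

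Ak1, the cytosolic adenylate kinase of muscle (ENSMUSG00000026817, chromosome 2, 32621758 to 32635058, plus strand, protein-coding), had the lowest estimate of the 7 genes. It stood at 1164, 1347 and 1416 normalised CPM in the MEF2C libraries and at 1585, 1940 and 1677 in the GFP libraries. All 3 MEF2C libraries lay below all 3 GFP libraries, also on library totals. The means were 1309 ± 130 against 1734 ± 184 CPM (SD, n = 3 per group), 0.755 times as much. The log2 fold change of -0.41 ± 0.12 (SE) had an unadjusted p of 0.00525, rank 72 of 9229 genes, and an edgeR adjusted p of 0.659, so that it did not pass over all genes. DESeq2 gave -0.42 with an adjusted p of 0.515. It lay between -0.48 and -0.27 over the 16 alternatives, with the smallest size on library totals and an adjusted p between 0.215 and 1.00.

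Ampd1, the muscle AMP deaminase (ENSMUSG00000070385, chromosome 3, 103074014 to 103099720, plus strand, protein-coding), followed a similar course. It stood at 479, 531 and 513 normalised CPM in the MEF2C libraries and at 515, 719 and 605 in the GFP libraries. GFP replicate 2 was again the highest library, and GFP replicate 1 lay among the MEF2C libraries, so that the groups overlapped. The log2 fold change was -0.27 ± 0.13 (SE; edgeR adjusted p = 0.900), -0.15 without GFP replicate 2 and -0.13 on library totals. Counts of Ampd1 per 100 counts of Ak1 in the same library were 41.1, 39.4 and 36.2 in the MEF2C libraries and 32.5, 37.1 and 36.1 in the GFP libraries. Per 100 counts of Ckm, Ak1 had 2.93 in MEF2C replicate 1 and between 3.76 and 4.12 in the other 5 libraries, where the groups overlapped.

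Mb, which stores oxygen and speeds its passage through the fibre (ENSMUSG00000018893, chromosome 15, 77015487 to 77050670, minus strand, protein-coding), varied most among the 7 genes, within both groups. It stood at 3863, 3482 and 1797 normalised CPM in the MEF2C libraries and at 2051, 3244 and 3620 in the GFP libraries. MEF2C replicate 3 and GFP replicate 1 were low and the other 4 libraries were high, a 2.15-fold span. The group means were 3047 ± 1100 and 2972 ± 820 CPM (SD, n = 3 per group), and the log2 fold change was 0.04 ± 0.37 (SE; edgeR adjusted p = 0.997). Leaving out MEF2C replicate 1, 2 or 3 gave -0.18, -0.07 and 0.30, and leaving out GFP replicate 1, 2 or 3 gave -0.19, 0.10 and 0.20. On library totals it was 0.16. The Mb gene model overlaps Apol6 on the opposite strand by 5942 bases, and whether reads were assigned by strand is not given in the sources used here. Apol6 had between 19 and 56 counts a library against 6921 to 14910 for Mb. Annotated non-coding genes without a row here overlap Ckm, Ckmt2, Ampd1 and Mb by up to 3952, 613, 1081 and 412 bases. Their part in the counts was not tested.

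Across the 6 libraries the genes fell into patterns that can be read from their log2 levels, each taken relative to its own mean. Ckm, Ak1 and Ampd1 were all highest in GFP replicate 2, at 0.32, 0.37 and 0.37 above their means. Mb, Ckmt2 and Ckb had their 2 lowest values in MEF2C replicate 3, at -0.69, -0.36 and -0.29, and GFP replicate 1, at -0.50, -0.20 and -0.39. Ak1 and Ampd1 differed by a root mean square of 0.11 over the 6 libraries, Ckm and Ampd1 also by 0.11, and Mb and Ckmt2 by 0.22, while Ak1 and Mb differed by 0.51. As descriptions over 6 libraries that share their scaling, Pearson's r was 0.95 for Mb and Ckmt2, 0.89 for Ak1 and Ampd1 and -0.10 for Ak1 and Mb. Mb counts per count of Ak1 ran from 1.27 in MEF2C replicate 3 and 1.29 in GFP replicate 1 to 3.32 in MEF2C replicate 1.

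**Figure D4:**
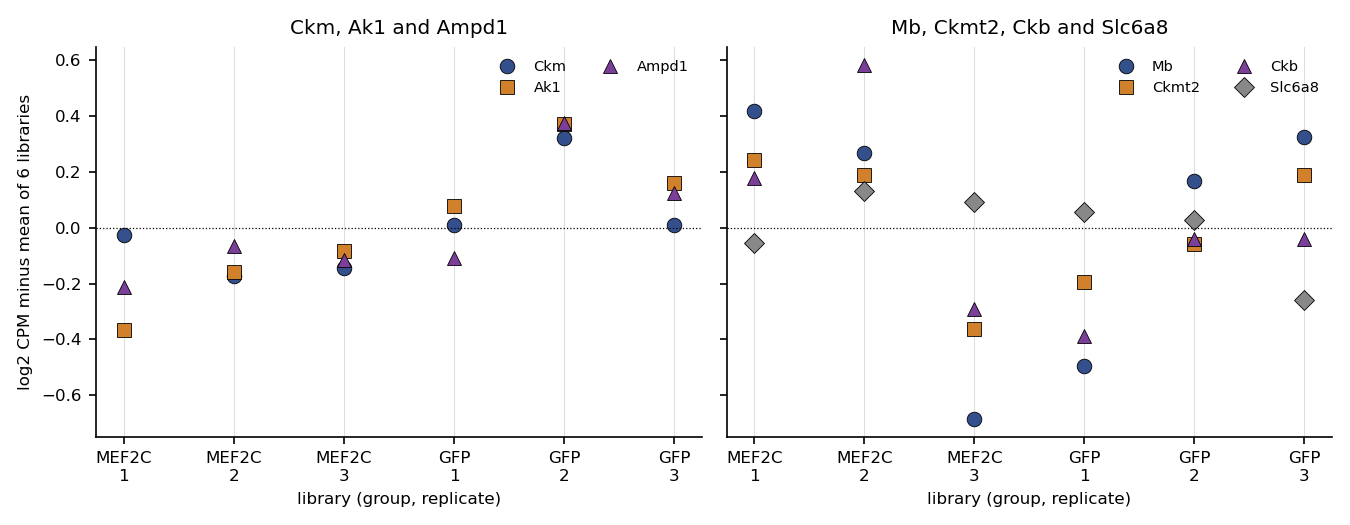
Log2 CPM of each gene minus its mean over the 6 libraries (y axis) in each library (x axis), for Ckm, Ak1 and Ampd1 (left) and for Mb, Ckmt2, Ckb and Slc6a8 (right). The left-hand genes are highest in GFP replicate 2, at 0.32 to 0.37, and Mb, Ckmt2 and Ckb are lowest in MEF2C replicate 3 and GFP replicate 1.

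Fibre-type genes were measured beside these patterns. The 9 slow-fibre genes summed to 1694, 1665 and 422 normalised CPM in the MEF2C libraries and to 208, 198 and 265 in the GFP libraries. All 9 had a positive estimate, with a median log2 fold change of 3.51, and 8 of them an unadjusted p under 0.05, but 0 were called by edgeR. Without MEF2C replicate 3 edgeR called 5 and without the low-count filter 1, and the DESeq2 Wald test called 7. Among the MEF2C libraries, Mb, Ckmt2 and the slow-fibre sum were all lowest in replicate 3. GFP replicate 3, with 265 CPM of slow-fibre genes, held 3620 CPM of Mb, and MEF2C replicate 2 held 3482 CPM. The 10 fast-fibre genes summed to 143637, 137032 and 140457 CPM in the MEF2C libraries and to 191277, 210625 and 183690 in the GFP libraries, with GFP replicate 2 the highest, as for Ckm, Ak1 and Ampd1. All 10 had a negative estimate and 3 of them, Pvalb, Mylpf and Myl1, were lower by edgeR over all genes (adjusted p = 0.0162, 0.0189 and 0.0342). The median log2 fold change of these 10 genes was -0.36, against -0.23 for Ckm, -0.27 for Ampd1 and -0.41 for Ak1. The part of fibre type in the levels of the member genes was not tested. Without MEF2C replicate 2, GFP replicate 2 or GFP replicate 3, with non-robust dispersion and with the replicate block 0 of the 10 were called, and without MEF2C replicate 1 there was 1.

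Genes with the most similar pattern were sought among 6980 others, by the root mean square difference of their centred log2 levels over the 6 libraries. For Ckmt2 these were Ech1, Rrp36 and Echs1, at differences of 0.03, 0.05 and 0.05. Ech1 and Echs1 encode enzymes of fatty acid oxidation in mitochondria; Ech1 stood at 302, 295 and 205 normalised CPM in the MEF2C libraries and at 229, 252 and 283 in the GFP libraries, the same order of libraries as Ckmt2. For Ckb they were Myl12a, a light chain of non-muscle and smooth muscle myosin, Pmepa1 and Hadh, a further enzyme of fatty acid oxidation, at 0.08, 0.09 and 0.09. For Mb they were Itga5, the integrin alpha 5 chain, Arhgap1 and Fxyd5, at 0.08, 0.10 and 0.12. Cse1l was nearest to Ckm, Golga7 to Ak1, Ccnt1 to Ampd1 and Gorasp2 to Slc6a8, at 0.02, 0.07, 0.03 and 0.04. The choice of these genes is a description over 6 libraries, with no test.

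In the neighbouring pathways 0 of the 60 tested genes passed by edgeR, where 7 of 9229 genes tested passed over the whole table, and 6 had an unadjusted p under 0.05, where 5.71% of all genes tested had one. Beyond the 3 creatine kinases, 4 of 5 listed creatine and nucleotide kinase genes were tested, 2 with a higher and 2 with a lower estimate. Gatm and Gamt, which make creatine in sequence, had log2 fold changes of -0.36 ± 0.22 and 0.36 ± 0.29 (SE; edgeR adjusted p = 0.928 and 0.981). Gamt had 60, 137 and 130 counts in the MEF2C libraries and 90, 52 and 75 in the GFP libraries. Ckmt1, the mitochondrial creatine kinase of other tissues, had 0 counts in all 6 libraries. Among the other adenylate kinases 3 of 8 were tested, 1 higher and 2 lower, with Ak6, a nuclear member, at -0.29 ± 0.13 (SE; edgeR adjusted p = 0.865).

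In purine nucleotide turnover 13 of 16 genes were tested, 8 with a higher and 5 with a lower estimate and a median of 0.06. The muscle adenylosuccinate synthase Adssl1, which acts after AMP deaminase in the purine nucleotide cycle and starts the return of IMP to AMP, stood at 305, 363 and 343 normalised CPM in the MEF2C libraries and at 269, 267 and 274 in the GFP libraries. All 3 MEF2C libraries lay above all 3 GFP libraries, opposite in direction to the estimate for Ampd1, and the log2 fold change of 0.32 ± 0.12 (SE) did not pass (edgeR adjusted p = 0.808). Ampd2, the AMP deaminase of non-muscle cells, had 12, 17 and 18 counts in the MEF2C libraries and 9, 5 and 4 in the GFP libraries, with a log2 fold change of 1.14 ± 0.42 (SE; edgeR adjusted p = 0.803).

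AMPK, the kinase that senses AMP, had all 10 of its listed subunits and upstream partners tested, 3 with a higher and 7 with a lower estimate and a median of -0.10, which was 0.03 on library totals. Prkag2, a nucleotide-binding gamma subunit, had 11, 9 and 15 counts in the MEF2C libraries and 17, 20 and 17 in the GFP libraries (log2 fold change -0.85 ± 0.34, edgeR adjusted p = 0.808). Stk11, the upstream kinase LKB1, was estimated at 0.42 ± 0.20 on the log2 scale (edgeR adjusted p = 0.872). The 6 genes for the passage of ATP, ADP and phosphate through the mitochondrial membranes had a median of -0.08, and 0.05 on library totals. Library totals also shifted the median over all genes, from 0.01 to 0.14, so that both list medians lay below it by either scaling. The largest absolute estimates there were those of Vdac1 and Vdac2, outer-membrane channels, at -0.15 ± 0.14 and -0.11 ± 0.13 (edgeR adjusted p = 0.993 for both).

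Of the other globins and genes of haem metabolism 15 of 17 were tested, 7 with a higher and 8 with a lower estimate and a median of -0.03. Hebp1, a haem-binding protein, had 50, 54 and 41 counts in the MEF2C libraries and 30, 23 and 28 in the GFP libraries, a log2 fold change of 0.62 ± 0.24 (SE; edgeR adjusted p = 0.808). Uros, an enzyme of haem synthesis, stood at 0.36 ± 0.17 (edgeR adjusted p = 0.875), and neuroglobin, Ngb, had 0 counts in every library. All 9 oxygen-sensing genes were tested, 4 higher and 5 lower, with a median of -0.02, Hif1an, which restrains HIF, at -0.35 ± 0.16 and the prolyl hydroxylase Egln1 at 0.20 ± 0.15 (edgeR adjusted p = 0.865 and 0.976).

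**Figure D5:**
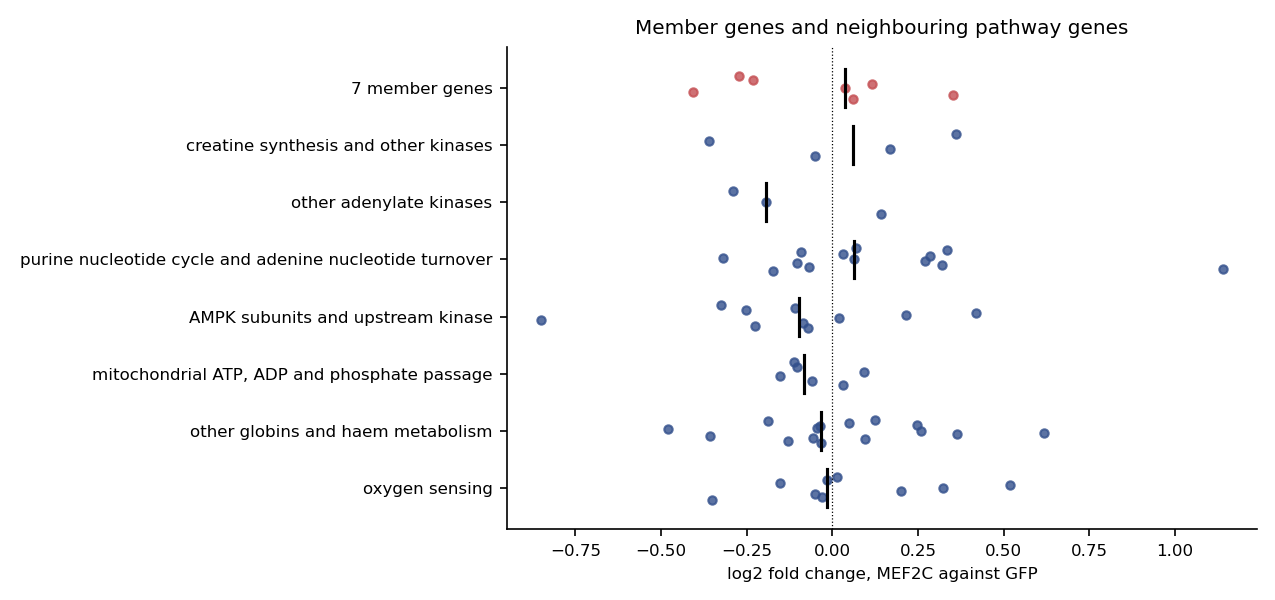
Log2 fold change, MEF2C against GFP libraries (x axis), of the 7 genes (red) and of the tested genes of 7 neighbouring lists (blue), 1 point a gene, with a black line at each median. Every list has genes on both sides of 0, the medians lie between -0.19 and 0.06, and no gene shown passed the test.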

How the data were processed

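Polyadenylated RNA from frozen skeletal muscle was read as Oxford Nanopore PCR-cDNA, per the labels' protocols. The authors deposited raw read counts for each gene and, per the file headers, CPM scaled to the whole library; the CPM served only to compare library totals, and listed counts were 95.6% to 96.4% of them. The submitters' processing notes name minimap2, GRCm38 and DESeq2 1.6.3 with no role for each; how reads were counted, on which annotation and with which strand setting is not given in the sources used here. The 30 rows naming no gene held 0 counts and were left out.

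The test on counts was that of edgeR 4.0.16 under R 4.3.3 (quasi-likelihood, robust dispersion, filter by group, TMM, no covariate; Benjamini-Hochberg adjusted p under 0.05 over 9229 genes). SEs come from the F statistic; log2 levels used a prior count of 2. In simulated counts for 3 against 3 libraries (9257 genes tested), 61.0% of 2-fold and 97.0% of 4-fold changes were recovered. The simulation gave every gene the same dispersion and changed only genes with a mean of at least 20 counts. Recovery may therefore be lower for genes that vary more between libraries, and changes smaller than 2-fold were not simulated. Coordinates and lengths are from GENCODE M21. Alternatives were DESeq2 1.42.0 size factors and Wald test, limma-voom (limma 3.58.1), library totals, leaving out the 50 most abundant genes, no filter, a strict filter (at least 1 CPM in 3 libraries, mean of 20 counts), non-robust dispersion, a replicate block, a loess correction on transcript length (span 0.3), and each library left out.

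The members and lists were chosen with earlier results of these data known. Named are the 7 genes, Mef2c and Prr14, up to 3 called genes of each list or, with none called, the 2 of smallest p, and the 3 nearest profiles of each gene (mean of at least 20 counts, no predicted-gene symbol), in part. A gene that this rule names is not reported here. Other genes named were chosen after their values were seen. These are Ckmt1, Ngb, Apol6, the Ckb pseudogenes and single marker genes. No pair of libraries of 1 group agreed within sampling noise (chi-square per degree of freedom 5.65 to 11.7).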

Additional observations from a re-analysis of the deposited data

How the results depend on the processing

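Under all 16 alternatives 0 of the 7 genes and 0 of the 60 neighbouring pathway genes were called. Ckm, Ak1 and Ampd1 had a negative and Ckb and Slc6a8 a positive log2 fold change throughout. Mb turned to -3e-04 with limma-voom. With 1 library left out, Mb ran from -0.19 to 0.30 and Ckmt2 from -0.052 to 0.23. The count of called genes over the table, 7 by edgeR, was 4 with library sizes without the 50 most abundant genes, 35 with no low-count filter, 3 with the strict filter, 27 by the DESeq2 Wald test, 3 by limma-voom and 0 with non-robust dispersion, where 557 genes had an unadjusted p under 0.05. It was 3, 1 and 22 without MEF2C replicates 1, 2 and 3 and 2, 2 and 0 without GFP replicates 1, 2 and 3 (386 at an unadjusted p under 0.05 in the last). With the replicate block it was 2. Same-numbered libraries did not deviate together (correlations of -0.24, 0.05 and -0.25 for replicates 1, 2 and 3), and no library correlated best with its own number. The labels state no pairing, and these correlations cannot exclude it, since deviations from the mean of 3 libraries depend on each other. List medians near 0 changed sign with the scaling or with 1 library left out: haem genes ran from -0.05 to 0.12, oxygen sensing from -0.07 to 0.11 and purine turnover from -0.09 to 0.19. The median over all genes moved from 0.01 to 0.14 on library totals, a shift that every value given on library totals includes. Slc6a8 and Ckb rest on the fewest counts of the 7 genes, 49 to 282 a library, while the largest SE is that of Mb (0.37).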

Other observations

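The 2 libraries with little Mb and Ckmt2 came from different groups. Compared count by count, the chi-square for each degree of freedom was 7.88 between MEF2C replicate 3 and GFP replicate 1, against 11.7 and 10.6 between MEF2C replicate 3 and MEF2C replicates 1 and 2. GFP replicate 1 was nearer to GFP replicate 3 of its own group, at 6.62, and stood at 8.40 from GFP replicate 2. The deviations of these 2 libraries from their group means had a correlation of 0.32 across 9229 genes, the highest of the 9 pairings of a MEF2C with a GFP library.

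MEF2C replicate 1, which had the least Ak1 and Ampd1 and the most Mb and Ckmt2, also stood apart in neutrophil markers. These 8 genes reached a sum of 1219 normalised CPM there. The sum was 75.3 in GFP replicate 3 and at most 4.98 elsewhere. The blood genes were also highest there, at 8631 CPM, against 4393 and 4854 in MEF2C replicates 2 and 3 and 3080 to 4166 in the GFP libraries. The part of neutrophils in the levels of the 7 genes was not tested. Without this library the log2 fold change was -0.33 for Ak1, -0.24 for Ampd1 and -0.28 for Ckm, and 0.36 for Ckb and 0.17 for Slc6a8. Those of Mb and Ckmt2 turned negative, at -0.18 and -0.05.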
